A study of Mus musculus with 21 samples.

Results

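The S100 proteins are small calcium-binding proteins, and most of their genes sit side by side in one cluster on mouse chromosome 3. The genes described here are the 8 members of that cluster S100a1, S100a4, S100a6, S100a8, S100a9, S100a10, S100a11 and S100a13, which were looked up by symbol among 45706 gene identifiers of the deposited RNA-seq table. All 8 were measured, and all 8 passed the count filter. The study sorted peri-lesional cells after controlled cortical impact (CCI), an open-head model of traumatic brain injury (TBI), to ask what changes in brain innate immune cells when fibrin cannot bind their CD11b/CD18 integrin receptor. There are 21 libraries in 7 groups of 3. Wildtype (WT) sham controls gave CD45lo CD11b+ microglia, with no day after surgery listed, and were the reference for both days after injury. Injured WT mice and injured Fgg γ390–396A mice (mutant mice below) gave microglia 1 d or 7 d after CCI, and both genotypes gave CD45hi CD11b+ infiltrating myeloid cells, labelled macrophages in the submission, at 1 d. Mutant mice carry a germline knock-in in the fibrinogen gamma chain gene, so every tissue holds the allele, and all mice were adult males on the C57BL/6 background. Each library pooled the sorted cells of 2 brains, no uninjured mutant group was analysed here, and sham controls provided microglia only.

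Expression is given as CPM, counts per 1000000 counts of a library whose total was scaled with edgeR's TMM factors. The authors' salmon counts have transcript length divided out, so CPM can be set side by side between genes as well as between libraries. Total counts per library ranged from 18896957 to 51875767, ribosomal RNA genes took between 43.0% and 58.6% of them, and 3 counts, taken as the smallest level that can be seen, corresponded to between 0.0448 and 0.158 CPM for counting error only. Sorted fractions carried their labels: all 10 microglia markers were lower and all 8 monocyte markers higher in infiltrating myeloid cells than in microglia of the same genotype at 1 d by edgeR's quasi-likelihood test, the test used throughout. Neutrophil markers were present in both fractions. In bulk libraries, fewer cells of a type and less RNA per cell cannot be told apart.

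S100 proteins bind calcium through a pair of EF-hand loops and then expose a surface that grips partner proteins. S100a8 and S100a9 pair to form calprotectin, which fills the cytoplasm of neutrophils and is also abundant in blood monocytes. It sequesters zinc and manganese from microbes, carries arachidonic acid to the phagocyte NADPH oxidase, and acts as a danger signal on Tlr4 and Ager (RAGE) once released. S100a4 binds non-muscle myosin and marks motile leukocytes and fibroblasts. S100a6 binds annexin A11 and the ubiquitin ligase adaptor Cacybp. S100a10 is held in a tetramer with annexin A2 and is unusual in being locked in the active shape without calcium, and S100a11 binds annexin A1. S100a1 is best known from heart and skeletal muscle, where it acts on calcium release, and S100a13 takes part in the secretion of Fgf1 and Il1a, which lack a signal peptide.

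The cluster spanned 3.05 Mb of chromosome 3 (GRCm38, GENCODE M21), from S100a1 at chr3:90511034-90514392 to S100a10 at chr3:93555080-93564643. S100a13 (chr3:90514435-90524581), S100a4 (chr3:90603771-90606045), S100a6 (chr3:90612882-90624181), S100a8 (chr3:90668978-90670035) and S100a9 (chr3:90692632-90695721) followed S100a1, and S100a11 (chr3:93520488-93526287) lay just before S100a10. Fgg, the altered gene, lies on the same chromosome at chr3:83007724-83015049, between 7.50 Mb (S100a1) and 10.5 Mb (S100a10) away, so that an effect of the knock-in and one of linked sequence cannot be told apart in a comparison of genotypes. Sequence upstream of the starts is shown for the calprotectin pair, for 2 genes with steady high expression in infiltrating cells, and for the interval that S100a1 and S100a13 share, since these sets behaved differently in the libraries. Each is RefSeq GRCm38.p6 sequence, 5′ to 3′ on the gene's own strand, up to 250 bases before the start and stopped where GENCODE annotates an exon. Capitals mark matches, on either strand, to simple forms of 4 motifs of myeloid and inflammatory transcription factors, which may overlap: TTGCNNAA (C/EBP), TGANTCA (AP-1), GAGGAA (PU.1) and the NF-kB consensus by its outer GGG and CC.
S100a8, plus strand, chr3:90668821-90668977: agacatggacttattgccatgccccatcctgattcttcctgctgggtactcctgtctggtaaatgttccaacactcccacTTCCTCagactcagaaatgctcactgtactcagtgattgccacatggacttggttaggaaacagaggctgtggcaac
S100a9, minus strand, chr3:90695722-90695971: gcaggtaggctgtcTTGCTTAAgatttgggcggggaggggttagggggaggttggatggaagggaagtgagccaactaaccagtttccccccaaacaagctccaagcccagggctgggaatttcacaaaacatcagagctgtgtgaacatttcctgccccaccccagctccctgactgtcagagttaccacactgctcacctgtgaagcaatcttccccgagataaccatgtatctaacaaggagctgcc
S100a4, plus strand, chr3:90603520-90603769: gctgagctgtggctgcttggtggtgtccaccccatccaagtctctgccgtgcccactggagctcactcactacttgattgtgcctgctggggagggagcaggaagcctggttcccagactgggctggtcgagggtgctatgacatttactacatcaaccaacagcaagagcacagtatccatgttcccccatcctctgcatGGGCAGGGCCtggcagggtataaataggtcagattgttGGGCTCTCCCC
S100a11, plus strand, chr3:93520246-93520487: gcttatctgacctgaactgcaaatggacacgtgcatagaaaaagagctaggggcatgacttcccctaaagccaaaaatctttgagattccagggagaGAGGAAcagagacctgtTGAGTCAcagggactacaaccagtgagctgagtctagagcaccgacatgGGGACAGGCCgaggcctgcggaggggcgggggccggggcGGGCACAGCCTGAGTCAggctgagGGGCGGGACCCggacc
S100a1 to S100a13, plus strand, chr3:90514393-90514434: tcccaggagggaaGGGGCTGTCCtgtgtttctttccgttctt

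RefSeq windows matched 7 of the 8 genes, all but S100a10. The C/EBP letters were in 1 of 7 windows, that of S100a9, against 9.56% of 32851 windows of the same length. The AP-1 letters were in 1 window, that of S100a11, at 2 places, against 6.75% of windows. The PU.1 letters were in the windows of S100a8 and S100a11, against 23.3%, and the NF-kB letters in those of S100a1, S100a4, S100a6, S100a11 and S100a13, against 45.8%. S100a8 and S100a9 had none of the 4 motifs in common, and the second PU.1 match of S100a8 lay in the exon bases left out above. S100a1 and S100a13 run in opposite directions from starts 43 bases apart, and the match in their shared interval belongs to both windows. A match is a run of letters and no measured site.

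Expression in the cluster was uneven along the chromosome. GENCODE places 14 S100 genes in it, and 61 other protein-coding genes, mostly for the cornified envelope of skin. Of those 61, 55 had 0 counts in all 21 libraries and 1, Gm9774, reached 1 CPM. Of the 6 S100 genes that are not described in detail, S100a2 and S100a5 had 0 counts, and S100a3, S100a7a, S100a14 and S100a16 had means between 0 and 1.36 CPM in either fraction. The 8 genes here had means between 4.18 CPM (S100a1) and 126 CPM (S100a9) in the 15 microglia libraries, and between 8.79 CPM (S100a1) and 3664 CPM (S100a11) in the 6 libraries of infiltrating myeloid cells. S100a14, S100a16, S100a3 and S100a2, all low or at 0, lie in a row, whereas S100a5, at 0, lies between the abundant S100a4 and S100a6.

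**Figure D1:**
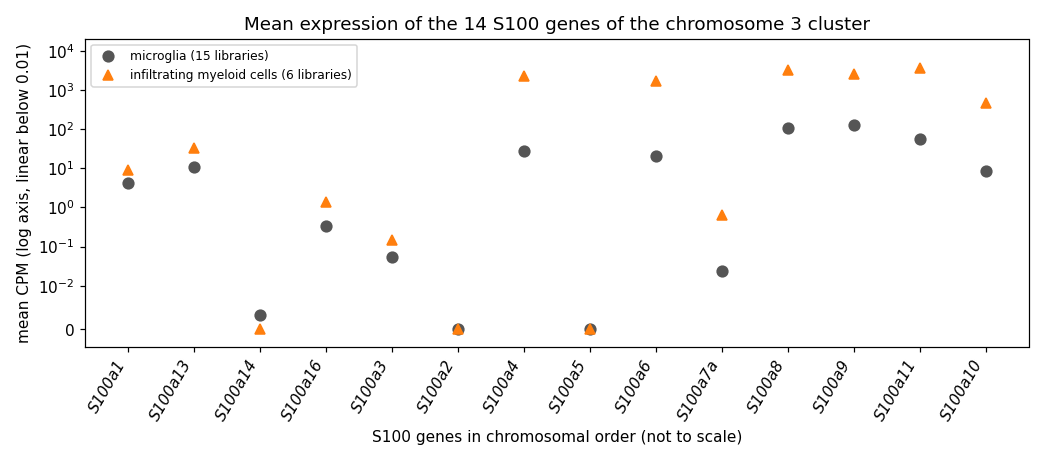
Mean CPM (y axis, log scale, linear below 0.01) of the 14 S100 genes of the chromosome 3 cluster, in chromosomal order but not to scale, in 15 microglia libraries (circles) and 6 libraries of infiltrating myeloid cells (triangles). S100a4, S100a6, S100a8, S100a9, S100a10 and S100a11 reached between 459 and 3664 CPM in infiltrating cells, while S100a2 and S100a5 were at 0 in both fractions.

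The widest contrast was between the sorted fractions at 1 d. In WT mice, 6 of the 8 genes were higher in infiltrating myeloid cells than in microglia (more than 1 on the log2 scale at an adjusted p under 0.05 from edgeR), where 5.61% of all 23815 genes tested were. In mutant mice 6 of 8 were higher, against 6.96% of all genes. S100a4, S100a6, S100a8, S100a10 and S100a11 were called in both genotypes, S100a13 in WT mice and S100a9 in mutant mice, and S100a1 in neither. The median log2 fold change of the 8 was 4.63 in WT and 5.35 in mutant mice, beside 0 and -0.13 over all genes tested. Together the 8 genes made up between 0.715% and 1.90% of a library of infiltrating cells, and between 0.00575% and 0.120% of a microglia library.

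In infiltrating cells S100a11 and S100a8 were the most abundant of them: S100a8 had the higher mean in WT mice (4342 CPM, against 4177 CPM for S100a11) and S100a11 in mutant mice (3151 against 2265 CPM). Its expression was 4125, 3760 and 4645 CPM in infiltrating cells of WT mice and 3143, 3621 and 2689 CPM in those of mutant mice. In microglia at 1 d it was 122, 70.9 and 101 CPM in WT mice and 67.0, 19.3 and 14.5 CPM in mutant mice. The fractions were far from overlapping. S100a11 was 42.7-fold higher in infiltrating cells in WT mice (log2 fold change 5.42 ± 0.70 (SE, n = 3 per group), adjusted p = 1.93e-05 from edgeR) and 93.6-fold higher in mutant mice (6.55 ± 0.74, adjusted p = 3.43e-06 from edgeR).

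S100a4, the myosin-binding member, showed the same separation. Infiltrating cells had 2658, 2627 and 2381 CPM in WT mice and 1882, 1739 and 2023 CPM in mutant mice. Microglia at 1 d had 94.9, 29.5 and 29.8 CPM in WT mice and 44.4, 7.02 and 10.9 CPM in mutant mice. The first replicate of both microglia groups stood above the other two, at levels well short of any infiltrating library. S100a4 was 49.7-fold higher in infiltrating cells of WT mice (log2 fold change 5.64 ± 0.62, adjusted p = 3.10e-06 from edgeR) and 90.2-fold higher in those of mutant mice (6.49 ± 0.65, adjusted p = 8.51e-07 from edgeR).

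S100a6, a partner of annexin A11 and Cacybp, had 1984, 1818 and 2228 CPM in infiltrating cells of WT mice and 1372, 1429 and 1489 CPM in those of mutant mice. Microglia at 1 d held 85.3, 10.5 and 40.3 CPM in WT mice and 49.2, 7.25 and 4.42 CPM in mutant mice. No microglia library came near the infiltrating ones, although microglia libraries of one group differed widely. The log2 fold changes were 5.47 ± 1.03 in WT mice (adjusted p = 0.000848 from edgeR) and 6.13 ± 1.06 in mutant mice (adjusted p = 0.000326 from edgeR). S100a10, the annexin A2 partner, had 456, 466 and 531 CPM in infiltrating cells of WT mice and 385, 437 and 476 CPM in those of mutant mice, below S100a4, S100a6 and S100a11 in every one of these libraries. Its microglia at 1 d held 18.1, 14 and 16 CPM in WT mice and 14.5, 8.33 and 9.92 CPM in mutant mice, an even level within each group. S100a10 was 30.2-fold and 39.6-fold higher in infiltrating cells (log2 fold changes 4.92 ± 0.49 and 5.31 ± 0.50, adjusted p = 1.00e-06 and 4.37e-07 from edgeR). Without the 5 microglia libraries highest in neutrophil markers, which also held more S100a4, S100a6 and S100a11 at 1 d, the log2 fold changes in mutant mice were 7.87 for S100a4, 8.08 for S100a6 and 7.70 for S100a11.

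The calprotectin genes were as abundant but far less even. S100a8 had 3793, 1925 and 7308 CPM in infiltrating cells of WT mice and 1329, 2987 and 2477 CPM in those of mutant mice. S100a9 had 4079, 1294 and 5067 CPM and 762, 2062 and 2124 CPM. The lowest libraries of each group, WT replicate 2 and mutant replicate 1, were low for both genes and had the smallest neutrophil marker sums of their groups (317 and 474 CPM, markers named below). Over the 6 infiltrating libraries S100a8 spanned 1329 to 7308 CPM, whereas S100a4 spanned 1739 to 2658 CPM. Microglia at 1 d had 288, 75.6 and 274 CPM of S100a8 in WT mice and 133, 16.2 and 12.4 CPM in mutant mice. Microglia of the same libraries had 460, 42.3 and 218 CPM and 155, 28.1 and 9.40 CPM of S100a9. Every infiltrating library was above every microglia library for both genes. S100a8 was 20.4-fold higher in infiltrating cells of WT mice (log2 fold change 4.35 ± 1.35, adjusted p = 0.0326 from edgeR) and 42.0-fold higher in those of mutant mice (5.39 ± 1.42, adjusted p = 0.00948 from edgeR). S100a9 was called in mutant mice (4.68 ± 1.45, adjusted p = 0.0251 from edgeR) and not in WT mice (3.86 ± 1.39, adjusted p = 0.0683 from edgeR). These calls were narrow: the WT call of S100a8 was lost without any of 4 single libraries (WT microglia replicate 1, 2 or 3 or WT infiltrating replicate 3, adjusted p between 0.0801 and 0.121 from edgeR), and the mutant call of S100a9 was lost without microglia replicate 2 or 3 (adjusted p = 0.0934 and 0.0851 from edgeR). Without the 5 microglia libraries highest in neutrophil markers, S100a9 was called in WT mice as well (4.79, adjusted p = 0.0213 from edgeR), and the log2 fold changes in mutant mice were 7.45 for S100a8 and 6.6 for S100a9.

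S100a1 and S100a13, which share a start region, were low in both fractions. S100a13 had 32, 35.3 and 38.0 CPM in infiltrating cells of WT mice and 32.6, 29.2 and 27.2 CPM in those of mutant mice, beside 12, 16.1 and 10.9 CPM and 13, 13.6 and 25.1 CPM in microglia at 1 d. The fractions did not overlap in either genotype, and the fold was small. S100a13 was 2.70-fold higher in infiltrating cells of WT mice (log2 fold change 1.43 ± 0.35, adjusted p = 0.00746 from edgeR) and was not called in mutant mice (0.79 ± 0.35, adjusted p = 0.119 from edgeR). S100a1 had 17.0, 9.69 and 5.05 CPM and 5.01, 8.37 and 7.67 CPM in infiltrating cells, and 3.89, 5.83 and 5.47 CPM and 4.15, 7.65 and 7.23 CPM in microglia. The fractions overlapped, with log2 fold changes of 1.06 ± 0.49 and 0.15 ± 0.49 (adjusted p = 0.168 and 0.915 from edgeR). Of the 8 genes, 7 had no overlap between the fractions in each genotype, where 13.5% (WT) and 12% (mutant) of all genes were higher without overlap. Without TMM factors S100a13 overlapped in mutant mice.

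**Figure D2:**
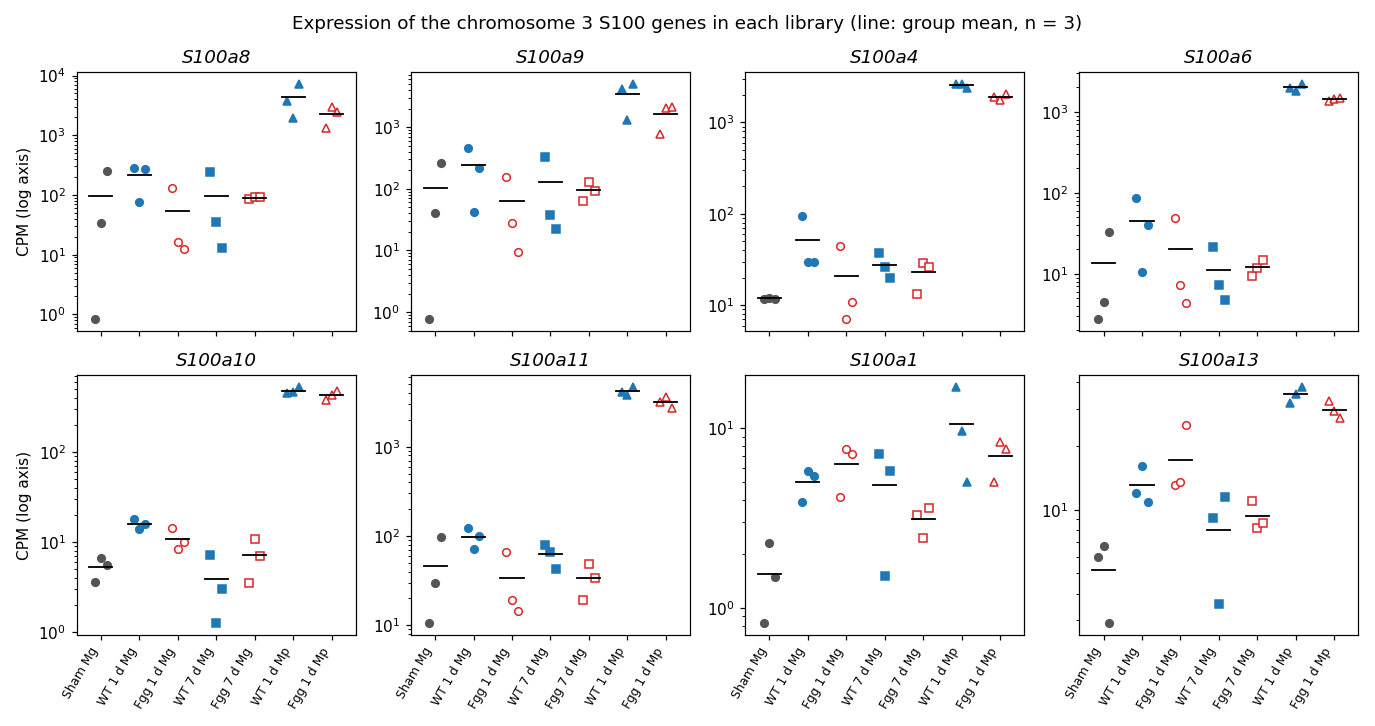
CPM (y axis, log scale) of each of the 8 genes in the 21 libraries, 1 symbol per library, by group (x axis, Mg for microglia and Mp for infiltrating myeloid cells), with filled symbols for sham and WT, open symbols for mutant and a line at the mean of 3. S100a4, S100a6, S100a10 and S100a11 form tight groups between 385 and 4645 CPM in infiltrating cells, S100a8 and S100a9 are spread in nearly every group, and S100a1 and S100a13 stay between 0.829 and 38.0 CPM.

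Among the 15 microglia libraries, the ratio of the highest to the lowest was 347 for S100a8 and 601 for S100a9, against 31.1 or less for the other 6 genes, and the spread was present in sham controls. Sham controls had 0.829, 33.8 and 249 CPM of S100a8 and 0.765, 40.4 and 264 CPM of S100a9, a 301-fold and a 344-fold range among 3 control libraries. The third sham library was above most injured ones, and the first held 26 counts of S100a8. S100a4 in the same 3 libraries was 11.8, 12.1 and 11.8 CPM, a 1.03-fold range. S100a8 and S100a9 moved together: the log2 ratio of S100a8 to S100a9 stayed between -0.79 and 0.84 in microglia and between -0.10 and 0.80 in infiltrating cells. As a description over the 15 microglia libraries, whose points share the sort, Pearson's r of log2 CPM between S100a8 and S100a9 was 0.98, against -0.05 between S100a8 and S100a13.

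Within each microglia group, the order of the 3 libraries for S100a8 and S100a9 was that of neutrophil markers. Summed over 11 neutrophil markers (Ly6g, Cxcr2, Retnlg, Mmp8, Mmp9, Camp, Ltf, Ngp, Lcn2, Padi4 and Cxcr1; Csf3r was left out because sham microglia express it), the level was 0.351, 17.3 and 163 CPM in sham controls. At 1 d it was 77.2, 9.59 and 32.9 CPM in WT microglia and 65.1, 14.9 and 2.01 CPM in mutant microglia. At 7 d it was 131, 27.9 and 13.4 CPM and 44.3, 63.2 and 56.7 CPM, and in infiltrating cells it ranged from 317 to 869 CPM. The sum is not the same mix in both fractions. Ngp, Camp and Ltf reached 37.9, 19.4 and 13.1 CPM in microglia and at most 5.95, 4.76 and 4.09 CPM in infiltrating cells. The rest of the 11 had their highest library among infiltrating cells. In all 5 microglia groups the 3 libraries had the same order for the marker sum as for S100a8, S100a9 and S100a11. The same order held in 4 of 5 groups for S100a6, 3 for S100a4, 2 for S100a10, and 0 for S100a1 and S100a13. Between groups the orders differed. Sham replicate 3 had 163 CPM of markers and 249 CPM of S100a8, and WT replicate 3 at 1 d had 32.9 and 274 CPM. Per CPM of the markers, S100a8 was 2.36, 1.96 and 1.53 in sham controls. At 1 d it was 3.72, 7.88 and 8.34 in WT and 2.04, 1.09 and 6.18 in mutant microglia. Ly6g was at 0 in 9 and Cxcr1 in 12 of the 15 microglia libraries. The part of neutrophils in the S100 levels of microglia was not tested, and the counts of members called in microglia were also taken without the 1 library of each microglia group that was highest in these markers. Those libraries were also the highest of their group for S100a8, S100a9 and S100a11 in 5 of 5 groups, and for S100a4, S100a6 and S100a10 in 4. For the sum of the 8 monocyte markers they were the highest in 5 of 5 groups. Those sums were 69.6 CPM in sham controls, 158 and 104 CPM in WT and mutant microglia at 1 d, and 84.0 and 45.6 CPM at 7 d. These libraries were thus high in both kinds of marker. Leaving them out takes away top S100 values and narrows the spread within groups, so calls gained this way are no separate evidence.

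**Figure D3:**
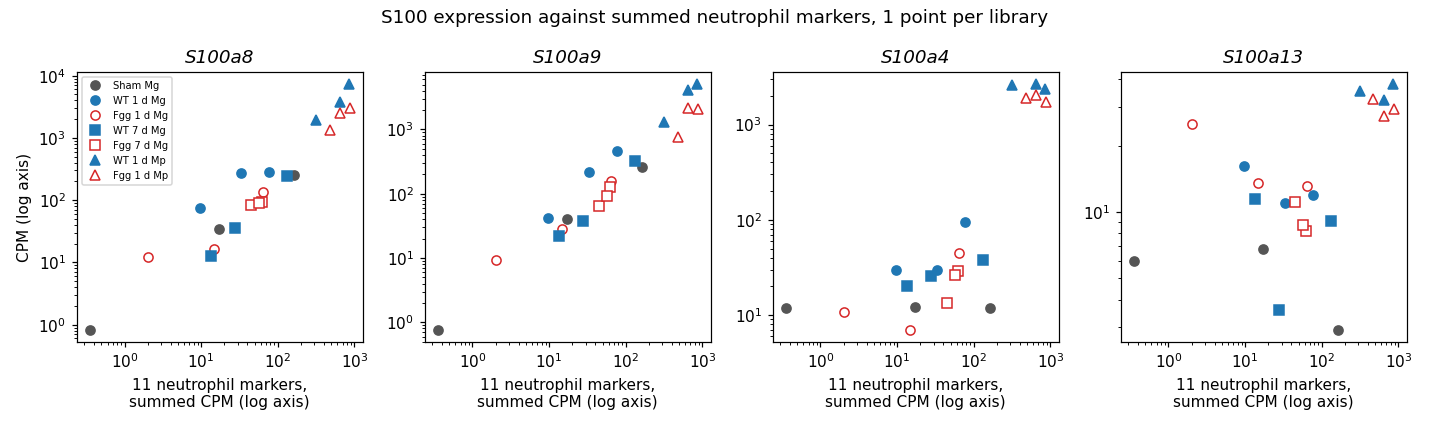
CPM of S100a8, S100a9, S100a4 and S100a13 (y axes, log scale) against the summed CPM of 11 neutrophil markers (x axis, log scale), 1 point per library, with mutant mice open and infiltrating cells as triangles. S100a8 and S100a9 climb with the markers from 0.829 and 0.765 CPM in the lowest sham library, S100a4 is level at 11.8 to 12.1 CPM across the 3 sham libraries, and S100a13 does not climb among microglia.

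Injury was compared with sham in microglia at 1 d. In WT mice S100a1, S100a4, S100a10 and S100a13 rose, 4 of 8, where 8.06% of all genes were called higher. The other members, S100a6, S100a8, S100a9 and S100a11, had log2 fold changes between 1.08 and 1.75 without passing the test. The median over the 8 was 1.47, beside 0 over all genes. In mutant mice S100a1 and S100a13 rose, 2 of 8, where 5.49% of all genes were called higher, and the median was 0.71. Both comparisons share the sham libraries. With the size factors of DESeq2 in edgeR, the balance of all genes called in mutant mice moved from 1308 higher and 274 lower to 1059 and 418, and the count of members did not move. All 3 sham libraries lay below all 3 WT libraries for 4 members, where 16.8% of all genes were higher without overlap, and below all 3 mutant libraries for 3 members, where 15.7% were. Scaling bears on these separations, since the TMM factors were 1.39 to 1.55 in sham controls and 0.741 to 1.11 in WT microglia at 1 d. Without them, 3 members in WT and 2 in mutant mice lay above sham without overlap. Markers of other cells differed too. Of the 8 monocyte markers, 1 was called higher in each genotype, the fibronectin gene Fn1 (log2 fold changes 5.52 and 3.83, adjusted p = 5.54e-06 and 0.000210 from edgeR), named here after its values were seen. Fn1 had 0.637, 1.29 and 4.35 CPM in sham controls, 81.5, 142 and 70.3 CPM in WT and 39.3, 26.2 and 25.6 CPM in mutant microglia at 1 d. The other 7 monocyte markers summed to 6.12, 15.5 and 65.2 CPM in sham controls, 76.3, 9.08 and 16 CPM in WT and 65.2, 9.21 and 15.8 CPM in mutant microglia, so that these sums overlapped. In WT and mutant mice 7 and 5 of the 10 microglia markers were called lower than in sham. The part of these shifts in the S100 values was not tested.

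S100a13 and S100a1 were called in both genotypes. S100a13 had 5.96, 6.76 and 2.92 CPM in sham controls, below all 6 microglia libraries at 1 d. It was 2.51-fold higher in WT mice (log2 fold change 1.33 ± 0.36 (SE, n = 3 per group), adjusted p = 0.0124 from edgeR) and 3.31-fold higher in mutant mice (1.73 ± 0.36, adjusted p = 0.00285 from edgeR). Without TMM factors the ratio of means was 1.48 in WT mice, whose libraries then overlapped with sham (9.22, 9.42 and 4.06 CPM in sham, 13.3, 12.1 and 8.10 CPM in WT), and 2.38 in mutant mice, whose libraries did not. S100a1 had 0.829, 2.32 and 1.48 CPM in sham controls, again below every library at 1 d. It was 3.29-fold higher in WT mice (1.72 ± 0.51, adjusted p = 0.0242 from edgeR) and 4.11-fold higher in mutant mice (2.04 ± 0.51, adjusted p = 0.0128 from edgeR). Without TMM factors the ratios of means were 1.94 and 3.02, still with no overlap. The adjusted p of S100a1 passed 0.05 without sham replicate 1 or 3 in either genotype (0.118 and 0.0724 in WT, 0.0755 and 0.0505 in mutant mice), without WT replicate 2 or 3 (0.0666 and 0.0608) and without mutant replicate 2 (0.0550), all from edgeR. That of S100a13 in WT mice did so without sham replicate 3 or WT replicate 2 (0.0686 and 0.0543 from edgeR).

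S100a4 and S100a10 rose in WT mice. S100a4, 11.8 to 12.1 CPM in sham controls, was 4.33-fold higher (log2 fold change 2.11 ± 0.53, adjusted p = 0.00827 from edgeR), with all 3 WT libraries above all sham libraries. WT replicate 1 held 94.9 CPM beside 29.5 and 29.8 CPM in the other two, and without it the log2 fold change was 1.32 (adjusted p = 0.0798 from edgeR). In mutant mice S100a4 overlapped with sham (0.81 ± 0.52, adjusted p = 0.399 from edgeR), and without replicate 1 the value turned to -0.41. S100a10 had 3.60, 6.57 and 5.61 CPM in sham controls. It was 3.05-fold higher in WT mice (1.61 ± 0.43, adjusted p = 0.0126 from edgeR), a call lost without sham replicate 1 (1.4, adjusted p = 0.0690 from edgeR). In mutant mice all 3 libraries were above sham too, with a log2 fold change of 1.06 ± 0.43 (adjusted p = 0.150 from edgeR). Without TMM factors that separation was lost, at 18.7, 8.47 and 9.21 CPM in mutant microglia and 5.57, 9.15 and 7.81 CPM in sham controls. The ratios of means in WT mice were then 2.91 for S100a4 and 1.89 for S100a10, without overlap.

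S100a6, S100a8, S100a9 and S100a11 had a sham library as high as injured ones. S100a6 had 2.74, 4.52 and 33.0 CPM in sham controls, and S100a11 had 10.7, 29.5 and 98.3 CPM. For both genes and for the calprotectin pair, the third sham library, the one highest in neutrophil markers, overlapped with the libraries at 1 d. Without the 5 microglia libraries highest in these markers, the count in WT mice was again 4 but of partly different genes: S100a4 and S100a10 remained, S100a6 (log2 fold change 2.80, adjusted p = 0.00105 from edgeR) and S100a11 (2.08, adjusted p = 0.00230 from edgeR) were called, and S100a1 and S100a13 were not (1.83 and 1.08, adjusted p = 0.0738 and 0.109 from edgeR, with 2 libraries left in each group). In mutant mice the same 2 genes, S100a1 and S100a13, were called without them (adjusted p = 0.0494 and 0.0318 from edgeR).

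By 7 d no member was called against sham in WT or mutant mice, where 2.02% and 0.663% of all genes were called. At an unadjusted p under 0.05 there were 2 and 1. Without the 5 microglia libraries highest in neutrophil markers the count was again 0 in both. S100a1 had 7.22, 1.5 and 5.76 CPM in WT and 3.28, 2.44 and 3.62 CPM in mutant microglia at 7 d. WT replicate 2 was within the sham range and the others above it, with a log2 fold change of 1.65 ± 0.51 (adjusted p = 0.113 from edgeR). DESeq2 called it (1.63, adjusted p = 0.0250 from DESeq2), as did edgeR without WT replicate 2 (2.07, adjusted p = 0.0226). S100a4 had 37.5, 26.0 and 20.1 CPM in WT and 13.4, 29.1 and 26.5 CPM in mutant microglia, all above all sham libraries. It was the 1 of 8 higher without overlap in WT mice, as 10.5% of all genes were, and 1 of 3 in mutant mice, with S100a1 and S100a13, as 8.45% of all genes were. Without TMM factors the separation of S100a4 held in WT mice, and that of all 3 genes was lost in mutant mice (16.1 CPM of S100a4 in mutant replicate 1 beside 16.4 to 18.2 CPM in sham). Its log2 fold change in WT mice was 1.23 ± 0.52 (adjusted p = 0.341 from edgeR), and it was called when the compared groups alone were fitted (1.24, adjusted p = 0.0328 from edgeR).

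Between 1 d and 7 d all 8 log2 fold changes were negative in WT microglia, with a median of -0.90 beside 0 over all genes. In mutant microglia 4 were negative and 4 positive, with a median of -0.31. Only S100a10 passed the test, in WT mice. WT microglia had 18.1, 14 and 16 CPM at 1 d and 7.26, 1.26 and 2.98 CPM at 7 d, with no overlap, as for 14.2% of all genes that were lower. It was the 1 of 8 called lower in WT mice, where 4.39% of all genes were, with a 4.21-fold difference (log2 fold change -2.08 ± 0.44, adjusted p = 0.00397 from edgeR). In mutant mice, with 3.46, 10.9 and 6.92 CPM at 7 d, the days overlapped and 0 of 8 members were called, against 3.54% of all genes. S100a1 and S100a13 were lower there without overlap, as were 14% of all genes. At an unadjusted p under 0.05, S100a13 alone was lower there. S100a6 in WT microglia was 21.5, 7.23 and 4.72 CPM at 7 d (log2 fold change -2.03 ± 0.89 against 1 d, adjusted p = 0.183 from edgeR). Without the 5 libraries highest in neutrophil markers it was called (-2.07, adjusted p = 0.0117 from edgeR), and in mutant mice S100a4 was called, as higher at 7 d.

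Genotypes were compared within each fraction and day. No member passed the threshold (a log2 difference of over 1 either way, at an adjusted p under 0.1) in microglia at 1 d, in microglia at 7 d or in infiltrating cells, where 0.0546%, 0.0378% and 0.453% of all genes did. DESeq2 called none of the 7 members for which it gave an adjusted p, all but S100a6. At an unadjusted p under 0.05 there were 2 members in microglia at 1 d, S100a4 and S100a11, and 0 in the other comparisons. The genotype effect did not pass an interaction test with day or with cell fraction for any member, where 0% and 0.0462% of all genes passed. At an unadjusted p under 0.05, S100a10 had an interaction with day.

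In microglia at 1 d, 6 of the 8 log2 fold changes of mutant against WT mice were negative, with a median of -1.23 beside 0 over all genes. S100a11 was the one without overlap, at 67.0, 19.3 and 14.5 CPM against 122, 70.9 and 101 CPM, where 2.99% of all genes were lower without overlap. Its log2 fold change was -1.54 ± 0.60 (adjusted p = 0.890 from edgeR). Without TMM factors S100a11 overlapped between genotypes, and S100a1 and S100a13 were higher in mutant mice without overlap. S100a8 and S100a9 differed by -1.98 ± 1.22 and -1.90 ± 1.28, S100a4 by -1.30 ± 0.52, S100a6 by -1.15 ± 0.86 and S100a10 by -0.55 ± 0.42, while S100a1 and S100a13 differed by 0.32 ± 0.49 and 0.40 ± 0.35 (log2, adjusted p between 0.890 and 1 from edgeR). The errors of the calprotectin genes are wide enough to hold both no difference and a large one. The neutrophil marker sum was 65.1, 14.9 and 2.01 CPM in the mutant libraries beside 77.2, 9.59 and 32.9 CPM in the WT ones, and Fn1 was 39.3, 26.2 and 25.6 CPM beside 81.5, 142 and 70.3 CPM. The sum of the other 7 monocyte markers was nearly level, at 65.2, 9.21 and 15.8 CPM beside 76.3, 9.08 and 16 CPM. Taken 1 by 1, 6 of the 8 monocyte markers were lower in mutant mice and 2 higher (median log2 fold change -0.27). Of the 10 microglia markers, 9 were higher (median 0.69), 6 at an unadjusted p under 0.05 and 0 called by edgeR. The part of these cells in the values was not tested. Without the 5 microglia libraries highest in neutrophil markers, S100a4 (-1.79, adjusted p = 0.0412 from edgeR) and S100a11 (-2.40, adjusted p = 0.0679 from edgeR) were called lower in mutant mice. Only 2 libraries were left in each group. The libraries left out were mostly the highest of their groups for these genes too, which narrows the spread by choice. S100a4 was also called without mutant replicate 1 (-2.52, adjusted p = 0.0716 from edgeR).

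In infiltrating cells all 8 log2 fold changes were negative, with a median of -0.47 beside 0 over all genes, and the range was from -1.08 ± 1.25 (S100a9) to -0.16 ± 0.41 (S100a10). S100a4, S100a6 and S100a11 had every mutant library below every WT library, 3 of 8, where 4.85% of all genes were lower without overlap. Their folds were small, at -0.44 ± 0.51, -0.49 ± 0.85 and -0.41 ± 0.58 on the log2 scale (adjusted p between 0.813 and 0.946 from edgeR). Without TMM factors S100a11 overlapped and 2 of 8 were left. S100a1, S100a8 and S100a13 had values of -0.59 ± 0.49, -0.94 ± 1.18 and -0.24 ± 0.34. Of the 10 microglia markers, 9 were higher in these mutant libraries (median log2 fold change 0.53), 5 at an unadjusted p under 0.05 and 0 called by edgeR. Their sum was 662, 1101 and 868 CPM in mutant and 733, 731 and 391 CPM in WT libraries. Of the 8 monocyte markers 4 were higher and 4 lower, and of the 11 neutrophil markers 6 and 5. The part of these cells in the S100 values was not tested. At 7 d the values in microglia lay between -0.87 ± 0.59 (S100a11) and 0.89 ± 0.44 (S100a10), all 8 genes overlapped between genotypes, where 11.1% of all genes did not, and the adjusted p was 1 for each from edgeR.

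**Figure D4:**
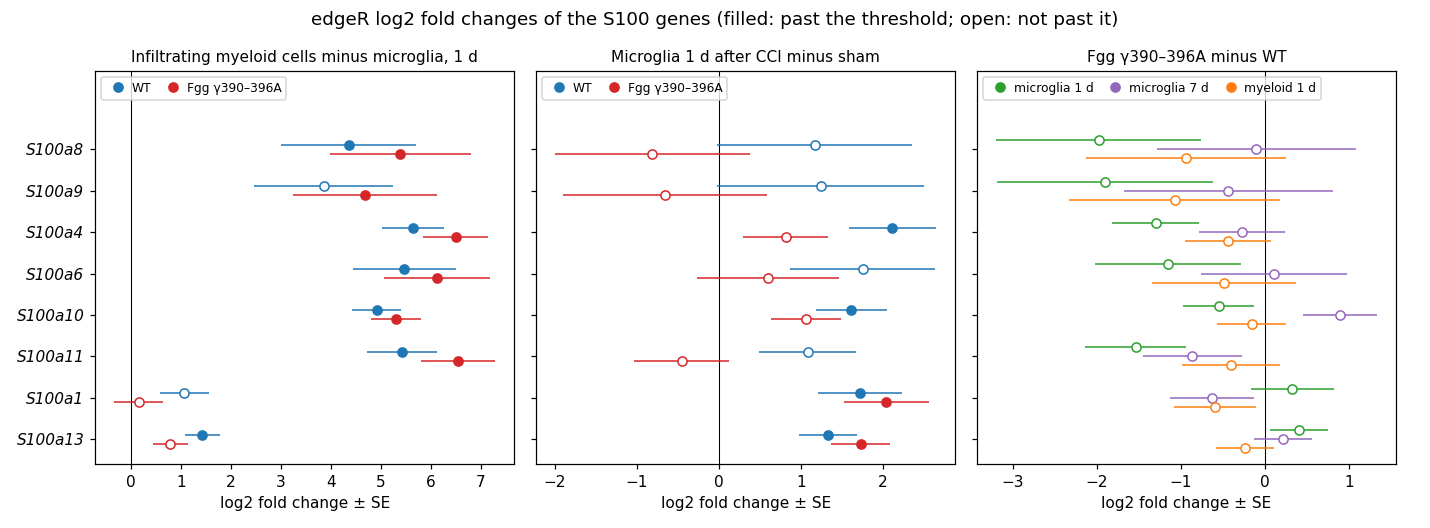
Log2 fold changes from edgeR with SE bars (x axes) of the 8 genes (rows) for infiltrating myeloid cells against microglia at 1 d, microglia at 1 d against sham, and mutant against WT mice, with filled points past the threshold and open points not past it. The first panel has 6 filled points in each genotype, the second 4 in WT and 2 in mutant mice, and the third none.

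Partner proteins and receptors were followed as a list of 16 genes, all of which were tested. Of the annexins and scaffolds, Anxa2, Anxa1, Anxa11 and Ahnak were higher in infiltrating cells than in microglia in both genotypes, as S100a10, S100a11 and S100a6 were. Anxa2, which holds S100a10 at the membrane, had between 300 and 427 CPM in infiltrating cells and between 1.24 and 33.1 CPM in microglia, with log2 fold changes of 3.93 ± 0.43 in WT and 5.21 ± 0.46 in mutant mice (adjusted p = 3.10e-06 and 2.51e-07 from edgeR). In microglia Anxa2 rose at 1 d against sham by 3.26 ± 0.43 in WT mice and 1.96 ± 0.41 in mutant mice (log2, adjusted p = 2.19e-05 and 0.00335 from edgeR), and fell by 7 d in both (-1.80 ± 0.41 and -1.43 ± 0.41, adjusted p = 0.00577 and 0.0434 from edgeR). S100a10 was called in the same directions in WT mice, and the difference between genotypes did not pass the interaction test for S100a10 (adjusted p = 1 from edgeR).

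Cacybp, which binds S100a6 and joins it to ubiquitin ligases, rose in microglia at 1 d in both genotypes (log2 fold changes 1.92 ± 0.30 and 2.02 ± 0.30, adjusted p = 0.000136 and 0.000169 from edgeR) and fell by 7 d in both (-1.98 ± 0.31 and -1.75 ± 0.30, adjusted p = 0.000252 and 0.00136 from edgeR). It was 16.3, 12.1 and 21.6 CPM in sham controls and 46.3, 67.4 and 76.2 CPM in WT microglia at 1 d, with no overlap. Myh9, the non-muscle myosin heavy chain that S100a4 binds, rose in WT microglia at 1 d (1.15 ± 0.19, adjusted p = 0.000218 from edgeR), as did Sugt1, a Cacybp relative that also binds S100a6 (1.02 ± 0.23, adjusted p = 0.00334 from edgeR). Myh9 was also higher in infiltrating cells than in microglia in mutant mice (1.26 ± 0.19, adjusted p = 8.12e-05 from edgeR). In all, 7 of the 16 were higher than sham in WT microglia at 1 d and 3 in mutant microglia, beside 8.06% and 5.49% of all genes. At 7 d against sham 2 and 1 were higher, beside 2.02% and 0.663% of all genes called in either direction. Between 1 d and 7 d 3 fell in WT mice, beside 4.39% of all genes, and 2 in mutant mice, beside 3.54% called in either direction. Infiltrating cells had 6 higher in WT mice, beside 5.61% of all genes. In mutant mice 9 were higher, beside 6.96%, and 1 was lower, beside 9.7%. None was called between genotypes, beside the same shares of all genes as for the members.

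Receptors and effectors of calprotectin had patterns of their own. Cybb, the catalytic subunit of the phagocyte NADPH oxidase, was called higher in both genotypes at 1 d (1.75 ± 0.33 and 1.15 ± 0.33), at 7 d (1.85 ± 0.33 and 1.39 ± 0.33) and in infiltrating cells (1.35 ± 0.32 and 2.43 ± 0.33, log2, adjusted p between 2.99e-05 and 0.0492 from edgeR). Cd36, a fatty acid transporter that takes up arachidonic acid carried by calprotectin, rose in WT microglia at 1 d (2.93 ± 0.69, adjusted p = 0.00492 from edgeR) and fell by 7 d (-2.60 ± 0.68, adjusted p = 0.0163 from edgeR), and was higher in infiltrating cells of mutant mice (1.91 ± 0.66, adjusted p = 0.0436 from edgeR). Cd69, an activation antigen that binds the complex, was higher in WT microglia at 1 d and 7 d (3.29 ± 1.11 and 4.65 ± 1.14, adjusted p = 0.0481 and 0.0282 from edgeR) at low levels of at most 1.75 CPM. It was also higher in infiltrating cells of mutant mice, at 3.70, 4.10 and 5.54 CPM (4.48 ± 1.06, adjusted p = 0.00452 from edgeR). Ager was below 1 CPM in every library and listed at 0 in all 3 infiltrating libraries of mutant mice, where it was called lower than in microglia (adjusted p = 0.0370 from edgeR). Tlr4 and Bsg, the other receptors of the list, and Il1a and Fgf1, the cargo of S100a13, were not called in any comparison described here. Tlr4 and Bsg missed the fold bar of 1, with some adjusted p under 0.05. At 1 d against sham in WT microglia Tlr4 was lower (-0.78 ± 0.20, adjusted p = 0.0106 from edgeR) and Bsg higher (0.76 ± 0.16, adjusted p = 0.00222 from edgeR). In infiltrating cells Tlr4 was higher (0.80 ± 0.20 and 0.59 ± 0.20, adjusted p = 0.0102 and 0.0440 from edgeR).

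Of 9 other S100 genes on the list, on chromosome 3 or elsewhere, 5 had enough counts to be tested and 0 were called by edgeR in any comparison, with 0 or 1 in each at an unadjusted p under 0.05. S100b, the astrocyte member, stayed between 0.0724 and 2.53 CPM over all libraries. Fgg itself had 33 counts in all, in 7 of the 9 libraries of mutant mice and in none of the 12 WT and sham libraries. The knock-in changes codons, so the level of Fgg is no check of the allele. Between Fgg and the end of S100a10, a window of 10.6 Mb, 137 genes were tested between genotypes. Fcrls and Rps3a1 were called lower in mutant mice in all 3 comparisons, and Arhgef2 higher in infiltrating cells. In microglia at 1 d, at 7 d and in infiltrating cells these were 1.46%, 1.46% and 2.19% of the window. The shares of all genes were lower, at 0.0546%, 0.0378% and 0.453%. Rps3a1, a ribosomal protein gene whose family has near-identical copies and whose counts are uncertain, differed by -2.32 ± 0.20, -1.92 ± 0.20 and -1.98 ± 0.20 on the log2 scale in microglia at 1 d, at 7 d and in infiltrating cells. Fcrls, a microglia gene, lies 4.24 Mb from Fgg and 3.25 Mb from S100a1. It differed by -2.18 ± 0.29, -1.62 ± 0.28 and -1.33 ± 0.28 on the log2 scale (adjusted p = 0.00143, 0.0401 and 0.0614 from edgeR) in microglia at 1 d, at 7 d and in infiltrating cells. These 3 genes were chosen after their values were seen. Gm42674, a gene model that overlaps S100a4 on the same strand, had 0 counts. Strand, which the library kit does not keep, could not have told the reads of these genes apart.

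Over all 21 libraries, the protein-coding genes whose log2 CPM was most like that of each member were found among 7326 genes, as a description in which the gap between the fractions and the depth of the libraries are shared by all points. S100a8 and S100a9 were most like Lcn2 (Pearson's r = 0.96 and 0.98), followed by the neutrophil chemokine receptor Cxcr2 for S100a8 (0.94) and by Retnlg for S100a9 (0.92). S100a4 was most like Emb and Plbd1 (0.99 each), S100a6 like Gda (0.99) and Emb (0.98), S100a10 like AA467197 (0.99) and Tarm1 (0.98), and S100a11 like Emilin2 (0.99) and Bst1 (0.98). S100a1 was most like Rpl36a (0.92) and Rps4x (0.91), both ribosomal protein genes, and S100a13 like Ndufs6 (0.93) and Cox5b (0.92), both genes of the mitochondrial respiratory chain. Among the 15 microglia libraries alone, Lcn2 was again first for S100a8 and S100a9 (0.92 and 0.96), Emb for S100a4 (0.88) and Gda for S100a6 (0.90), while S100a11 was most like Ahr (0.87) and S100a10 like B4galt7 (0.90). Between S100a1 and S100a13 Pearson's r was 0.80 over all libraries and 0.81 over the 15 microglia libraries.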

How the data were processed

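RNA-seq of 21 libraries in 7 groups of 3 was analysed. The authors quantified paired-end reads of unstranded NuGEN libraries with salmon in nf-core/rnaseq on GRCm38 and deposited expected counts, in which gene length is divided out and libraries are not normalized to each other. Non-whole numbers occurred in 56.8% of genes, and all values were rounded. Identifiers were matched to GENCODE M21 (45143 of 45706).

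edgeR 4.0.16 ran in R 4.3.3 on these counts (TMM scaling, quasi-likelihood test, Benjamini-Hochberg adjustment over 23815 genes) in 1 fit with a mean per group, after genes with fewer than 5 counts in all were left out. The SE is the absolute fold change over the root of F. Common dispersion gave a biological coefficient of variation of 0.643. A call needed a log2 difference of over 1 either way with an adjusted p under 0.05 (under 0.1 between genotypes), and an interaction an adjusted p under 0.1. Depth gave a floor of 3 counts. The scripts were tested on simulated data.

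The members, lists, motifs and markers were chosen with earlier results of these data known. Besides the members and Fgg, genes of the partner and other S100 lists were named where called (1 is not reported here), as were the 2 protein-coding genes most like each member (mean of at least 5 CPM). Alternatives were DESeq2 1.42.0, its size factors, other count filters, removal of rRNA genes, other thresholds, a replicate block, models of 2 groups at a time or of the 4 an interaction needs, CPM without TMM factors, and leaving out each library. Leaving out the 5 microglia libraries highest in neutrophil markers was added after the data were seen. Nothing in the labels says whether libraries of a group came from separate litters or sorting days, so p-values measure the spread between these libraries. Protein sequences were not used here.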

Additional observations from a re-analysis of the deposited data

How the results depend on the processing

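Most results kept their direction and side of the threshold. With libraries left out in turn, the number of members called ranged from 2 to 4 in WT microglia at 1 d against sham, 1 to 2 in mutant microglia at 1 d, 0 to 1 in WT microglia at 7 d, 5 to 6 in both contrasts of infiltrating cells with microglia, and 0 to 1 between genotypes in microglia at 1 d. The count for WT microglia at 7 d against sham, 0, became 1 with DESeq2 (S100a1) and 1 when the compared groups alone were fitted (S100a4). Without the 5 microglia libraries highest in neutrophil markers, the counts became 2 for WT microglia at 7 d against 1 d, 1 for mutant microglia at 7 d against 1 d, and 2 between genotypes in microglia at 1 d, where only 2 libraries per group were left. The cause was not tested, and leaving these libraries out also narrows the spread within groups. One fold change turned: that of S100a4 in mutant microglia at 1 d against sham was -0.49 without these libraries, and with 1 library left out it ranged from -0.41 to 1.22. That of S100a1 in infiltrating cells against microglia of mutant mice ranged from -0.083 to 0.45 with 1 library left out. Mean CPM without TMM factors moved by more than 1 SD in 14 of 56 levels. The number of all genes called between genotypes rose with DESeq2 from 13 to 104, 9 to 80 and 108 to 841 in microglia at 1 d, at 7 d and in infiltrating cells, and against sham at 7 d from 481 to 820 and 158 to 347. With 1 library left out, the number between genotypes ranged from 6 (without WT replicate 3) to 89 (without WT replicate 1) in microglia at 1 d and from 65 (without WT replicate 3) to 641 (without mutant replicate 3; 314 without mutant replicate 1) in infiltrating cells, and the interaction with cell fraction from 0 (without WT microglia replicate 3) to 151 (without mutant infiltrating replicate 3). Mutant microglia at 7 d had 82 and 74 genes called against sham without sham replicate 1 or 2, and 463 and 554 in place of 844 against 1 d without the replicate 2 or 3 of that day, and WT microglia at 7 d had 283 against sham without sham replicate 1. DESeq2 called 33 genes in place of 0 for the interaction with day and 259 in place of 11 for that with cell fraction. Models of the compared groups alone called 8, 19 and 7 genes between genotypes, 0 for the interaction with cell fraction, 85 against sham at 7 d in mutant mice and 2211 in place of 3967 in their contrast of fractions, which was 2511 without the 5 libraries. In infiltrating cells between genotypes, edgeR's own filter gave 176 and an adjusted p under 0.05 gave 47, and the interaction with cell fraction gave 6 at 0.05 and 0 without the 5 libraries. A log2 fold change above 1.5 left 1749 of 2923 and 834 of 1582 genes at 1 d against sham. DESeq2 gave no adjusted p for S100a6. With 3 libraries a group, the SE of S100a8 and S100a9 was over 1 on the log2 scale in every comparison, which limits what can be seen of them.

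Whether the replicate numbers pair the libraries was not settled. Deviations of same-numbered libraries of different groups correlated with a mean r of 0.026 over 63 pairs, beside -0.013 for other numbers. Single pairs ranged from -0.153 to 0.459, 11 of the 63 were above 0.1, and 11 of 21 libraries correlated best with their own number. A mean over all pairs cannot exclude that microglia and infiltrating cells of 1 number shared brains, and the labels do not say. With the replicate block, 66 in place of 108 genes were called between genotypes in infiltrating cells, and the number of members called was the same in all comparisons, 4 and 2 against sham at 1 d and 6 in each contrast of infiltrating cells with microglia.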
